A study of Mus musculus with 24 samples.

Results

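Bone marrow endothelial cells cultured together with hematopoietic stem and progenitor cells (HSPC) were compared with the same kind of endothelial cells cultured alone. The members are the 6 libraries whose titles name endothelium with HSPC (3 libraries) or endothelium alone (3 libraries), of 24 libraries in the series. All 6 are polyA RNA of C57BL/6J mouse cells grown in vitro, extracted with Trizol and read as paired ends from TruSeq libraries. The 3 libraries with HSPC are labelled as endothelium co-cultured with hematopoietic stem cells, and their titles say HSPC. Titles of all 6 include Akt1, the name of a kinase that growth factors switch on, so whatever it stands for is shared by both groups, and the labels do not say what was done to it. The labels give no culture time, oxygen level, medium or mouse age, and do not say whether HSPC were taken out before RNA was made. They also leave unsaid whether replicate libraries stem from separate cultures, so p-values rest on a library-to-library spread that may be technical. The other 18 libraries are marrow stroma alone and with HSPC, and endothelium and stroma from a first culture and in vivo. Of these, the 6 stromal libraries alone and with HSPC stand beside the endothelial ones below.

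Marrow endothelium lines arterioles and sinusoids and is known to supply stem cells with Cxcl12, Kit ligand and Notch ligands. Arterial endothelium is marked by Notch ligands, ephrin-B2 and connexins, and sinusoidal endothelium by scavenger receptors and Flt4. Cells short of oxygen stabilize the HIF transcription factors, which raise glucose uptake, glycolysis, lactate export and Vegfa.

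Transcript levels were deposited as FPKM, fragments scaled to transcript length and library size, for 23879 genes. No read counts were used, so the depth of each library is unknown and the spread between 3 libraries is the measure of error. FPKM summed to 1550528 to 1580592 in the libraries alone and to 1624787 to 1678539 with HSPC, and 12447 to 12508 and 12701 to 12740 genes reached 1 FPKM. Libraries of a group correlated at 0.9950 to 0.9960 alone and 0.9952 to 0.9955 with HSPC, across genes on the log2(FPKM + 1) scale, against 0.9621 to 0.9695 between the groups. The endothelial label held in both groups: all 26 endothelial identity genes were detected, and their summed level was 30746 to 31222 FPKM alone and 32332 to 33831 FPKM with HSPC, against 660 to 690.2 FPKM in stroma alone. Cdh5, the endothelial cadherin, was at 3965, 3974 and 4086 FPKM alone and 3998, 3764 and 3910.5 FPKM with HSPC. The 24 mesenchymal matrix genes summed to 1057 to 1228 FPKM alone and 1559 to 1693 FPKM with HSPC, against 89438 to 95675 FPKM in stroma alone. Libraries 1 and 2 of endothelium alone held low levels of stromal genes, Col1a1 and Mgp among them, that were lower or at 0 in the other 4. Library 3 alone held some as well, with Mgp at 2.33 FPKM and Postn at 3.69 FPKM. With HSPC, Mgp was at 0, 0 and 0 FPKM and Postn at 0.540, 0 and 0 FPKM. Col1a1, the main fibrillar collagen, was at 7.66, 7 and 0.480 FPKM alone and 0.940, 0.320 and 0.410 FPKM with HSPC.

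The promoters of 4 hypoxia genes that are described below are shown because these genes moved together and were among the largest rises. The sequences are RefSeq's on GRCm38.p6, from 250 bases before to 50 bases after the gene start, and the FPKM files use the build mm9, so no position is shared between them. Capitals mark ACGTG or its reverse complement CACGT, the core letters of the hypoxia response element. Each sequence reads 5′ to 3′ on the strand of its gene. Slc16a3 lies on the plus strand at chr11:120948817-120949116, Ankrd37 on the minus strand at chr8:45999801-46000100, Bnip3 on the minus strand at chr7:138909457-138909756 and Hk2 on the minus strand at chr6:82774405-82774704.
Slc16a3: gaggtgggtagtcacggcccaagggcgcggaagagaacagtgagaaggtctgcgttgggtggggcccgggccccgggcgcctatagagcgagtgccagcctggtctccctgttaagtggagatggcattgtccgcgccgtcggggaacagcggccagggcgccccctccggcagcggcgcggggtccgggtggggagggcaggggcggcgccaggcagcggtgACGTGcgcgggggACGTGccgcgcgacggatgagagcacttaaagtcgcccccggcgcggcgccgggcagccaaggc
Ankrd37: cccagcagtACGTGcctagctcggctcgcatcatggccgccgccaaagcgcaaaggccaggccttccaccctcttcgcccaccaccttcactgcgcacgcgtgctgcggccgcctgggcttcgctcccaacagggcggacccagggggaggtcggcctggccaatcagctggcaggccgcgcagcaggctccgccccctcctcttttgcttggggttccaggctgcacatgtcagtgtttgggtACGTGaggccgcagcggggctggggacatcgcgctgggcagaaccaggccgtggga
Bnip3: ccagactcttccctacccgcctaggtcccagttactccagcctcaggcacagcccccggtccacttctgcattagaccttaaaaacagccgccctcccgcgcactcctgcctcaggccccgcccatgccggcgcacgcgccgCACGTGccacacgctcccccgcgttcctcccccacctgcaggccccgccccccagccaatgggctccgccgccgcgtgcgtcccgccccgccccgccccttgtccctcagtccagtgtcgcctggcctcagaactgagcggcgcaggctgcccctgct
Hk2: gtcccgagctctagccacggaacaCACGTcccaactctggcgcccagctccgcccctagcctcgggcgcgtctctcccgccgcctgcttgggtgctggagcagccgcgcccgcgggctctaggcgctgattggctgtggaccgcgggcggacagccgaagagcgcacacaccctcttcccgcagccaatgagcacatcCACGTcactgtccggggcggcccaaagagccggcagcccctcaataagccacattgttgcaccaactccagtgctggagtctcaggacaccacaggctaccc
Each of the 4 held 2 matches, counted on both strands, where CACGTG counts as 2 overlapping matches. These letters were chosen after the values were seen. Of 21 hypoxia and glycolysis genes with a promoter in the table, 12 held a match (57.1%), against 19.7% of 27025 mouse promoters of the same length. A match describes the sequence and is not a measured site.

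The comparison asks how marrow endothelium responds to HSPC. Of 14017 genes tested, 6813 were called (48.6%): 3962 were higher with HSPC (28.3% of those tested) and 2851 were lower (20.3%). A change of at least 2-fold was seen in 667 of the former (4.76%) and 351 of the latter (2.5%). The test was limma on log2(FPKM + 1) over the 12 libraries of endothelium and stroma alone and with HSPC, with Benjamini-Hochberg (BH) adjustment over all tested genes and a threshold of 0.05. The median difference over all tested genes was 0.02. All 3 libraries with HSPC lay above all 3 alone in 4962 of the tested genes (35.4%) and below them in 3616 (25.8%), so groups that do not overlap were common. The calls depend on which libraries set the spread: with all 24 libraries in the fit, 1268 of 15395 tested genes were higher (8.24%) and 584 lower (3.79%). In that fit the first culture takes part, whose endothelial libraries correlated at 0.9236 to 0.9402 with each other. The split also moved with scaling, from 58.2% of calls higher on the deposited values to 50.4% after trimmed-mean scaling (3496 higher, 3440 lower) and 45.5% after quantile normalization (3122 higher, 3739 lower). For this reason small differences are given below as values, and the named genes are mostly those with large ones. Counts of list members in endothelium are to be read beside the 28.3% higher and 20.3% lower of all tested genes.

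**Figure D1:**
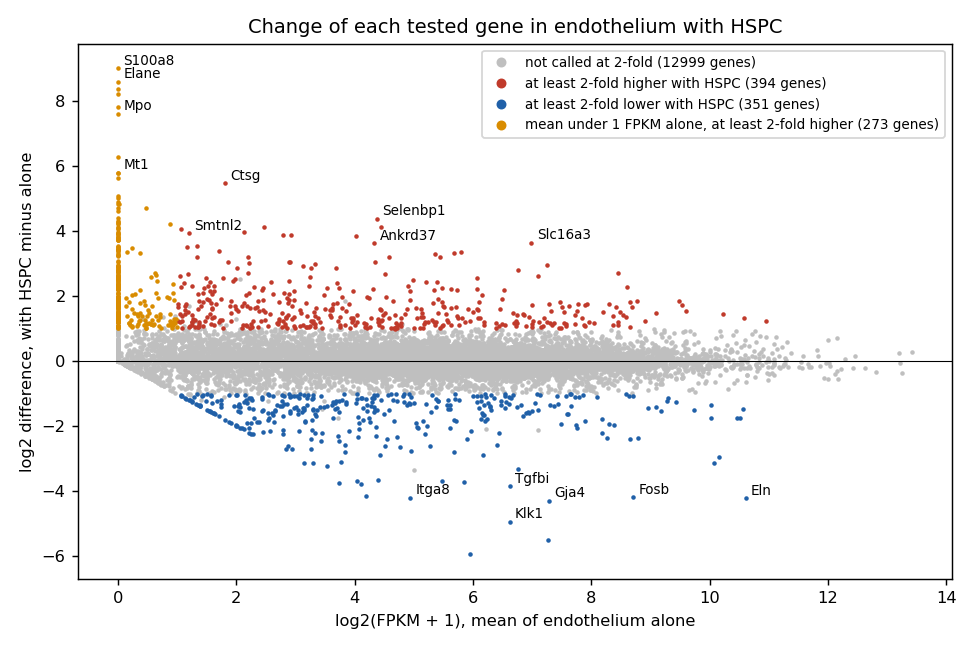
Log2 difference (endothelium with HSPC minus alone, on the log2(FPKM + 1) scale) against the mean level alone for each of 14017 tested genes. Red and blue points are the 394 and 351 genes with a mean of at least 1 FPKM alone that changed at least 2-fold, orange points the 273 genes under 1 FPKM alone that rose at least 2-fold, and some of the named genes are labelled.

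Genes near 0 alone were set apart, because RNA of added blood cells could enter the libraries with HSPC. A mean under 1 FPKM alone was found for 11411 genes, of which 1579 passed the filter of 1 FPKM in at least 3 of the 12 libraries. The remaining 12438 tested genes had a mean of at least 1 FPKM alone. Of these, 3569 were higher (28.7%), 2805 were lower (22.6%) and 6064 were not called, with 394 (3.17%) and 351 (2.82%) past 2-fold. With all 24 libraries in the fit, 965 of them were higher and 574 lower.

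The hypoxia and glycolysis genes rose together. All 22 members were higher with HSPC, 17 of them at least 2-fold, with a median difference of 1.60 against 0.02 over all tested genes. Their summed level was 8232 to 8321 FPKM alone and 19524 to 20793 FPKM with HSPC. The glucose transporter gene Slc2a1 was at 146, 129.5 and 135 FPKM alone and 859, 879 and 811 FPKM with HSPC. The lactate exporter gene Slc16a3 was at 163, 89.4 and 125 FPKM alone and 1556, 1609 and 1413 FPKM with HSPC. Hk2, an inducible hexokinase that starts glycolysis, was at 6.67, 6.05 and 6.61 FPKM alone and 60.9, 62.8 and 56.8 FPKM with HSPC. In each of these 3 genes all libraries with HSPC lay above all libraries alone, and the differences were 2.63 ± 0.11, 3.63 ± 0.16 and 3.04 ± 0.09 on the log2 scale (SE), with limma BH-adjusted p = 5.72e-09, 1.12e-08 and 4.68e-10. Slc16a3 and Hk2 carry 2 of the promoters shown above. Inside the pathway, the phosphofructokinase genes Pfkp and Pfkl rose by 2.20 and 1.83 (log2). Ldha, which makes lactate from pyruvate, rose by 1.32 from 1521 ± 58.6 to 3810.2 ± 140.1 FPKM (mean ± SD, n = 3). Pdk1, which holds pyruvate back from the mitochondria, rose by 1.70. The enzyme genes Aldoa, Hk1, Eno1 and Pkm rose by 0.93, 0.81, 0.78 and 0.59.

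The regulators and signals of the same list moved with the enzymes. Ankrd37, a small ankyrin repeat gene that HIF is known to raise, was at 17.6, 20.3 and 19.5 FPKM alone and 278, 226 and 236 FPKM with HSPC, a difference of 3.62 ± 0.09 (SE; limma BH-adjusted p = 1.16e-10). Bnip3, a receptor that marks mitochondria for removal, was at 62.9, 48.03 and 52.5 FPKM alone and 574, 599 and 516 FPKM with HSPC, a difference of 3.35 ± 0.10 (SE; limma BH-adjusted p = 5.05e-10). The secreted factors Vegfa and Adm (adrenomedullin, a vasodilator) also rose. Vegfa, the main growth factor of endothelium, was at 55.6, 52.2 and 48.7 FPKM alone and 248, 246 and 229 FPKM with HSPC. Adm was at 62.97, 68.8 and 66.5 FPKM alone and 399, 417 and 352 FPKM with HSPC. No library alone reached the lowest library with HSPC for either gene. Egln3, a prolyl hydroxylase that marks HIF for breakdown, rose from 543 ± 12.4 to 1528 ± 61.6 FPKM (mean ± SD, n = 3). Car9, a surface carbonic anhydrase, is the weak member: it was at 4.60, 3.80 and 4.22 FPKM alone and 4.57, 5.58 and 6.16 FPKM with HSPC, and the groups overlapped. Its call was lost with only the 6 endothelial libraries, with all 24 libraries and after quantile normalization. With all 24 libraries in the fit 18 of the 22 members were called, and Eno1, Pgk1 and Pkm were not, nor was Car9. Reads of Gapdh and Eno1 can be shared with near-identical pseudogene copies, so their levels are uncertain. In stroma all 22 members were higher with HSPC too, with a median of 2.72, beside 25.6% of all tested genes called higher there and 35.4% lower.

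Among genes with a mean of at least 1 FPKM alone, the 12 largest rises that the naming rule took were of several kinds. The mitochondrial adenylate kinase gene Ak4 was at 7.04, 6.93 and 5.86 FPKM alone and 107, 122 and 105 FPKM with HSPC. Mgarp, which codes for a protein of mitochondria, was at 18.6, 11.1 and 16 FPKM alone and 229.8, 253 and 207 FPKM with HSPC. Smtnl2, a relative of the muscle protein smoothelin, was at 1.22, 1.59 and 1.05 FPKM alone and 32.4, 37.2 and 31.7 FPKM with HSPC. No library alone reached the lowest library with HSPC, and the log2 differences were 3.89 for Ak4, 3.86 for Mgarp and 3.93 for Smtnl2. Selenbp1, a selenium-binding protein gene, was at 27.4, 12.1 and 19.8 FPKM alone and 406, 450.0 and 366 FPKM with HSPC. Selenbp2 was at 4.75, 2.26 and 3.10 FPKM alone and 67.2, 74.2 and 55.6 FPKM with HSPC, and since it is a near-identical copy of Selenbp1 the share of each is uncertain. Sprr2b, a small proline-rich protein gene known from skin, was at 18.3, 23.3 and 20.7 FPKM alone and 426, 342 and 360.1 FPKM with HSPC, a difference of 4.12 ± 0.10 (SE; limma BH-adjusted p = 1.16e-10). In stroma Sprr2b was listed at 0 both alone and with HSPC, so its change there cannot be judged. Psg22, of the pregnancy-specific glycoprotein family, was at 5.93, 4.09 and 7.79 FPKM alone and 92.6, 107 and 94.5 FPKM with HSPC. Both belong to families of close copies, so the gene named is uncertain. The 12 also held the blood cell genes Ctsg, Lyz2 and Mcpt8, with Ctsg the largest rise of all, described with the other blood genes below.

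**Figure D2:**
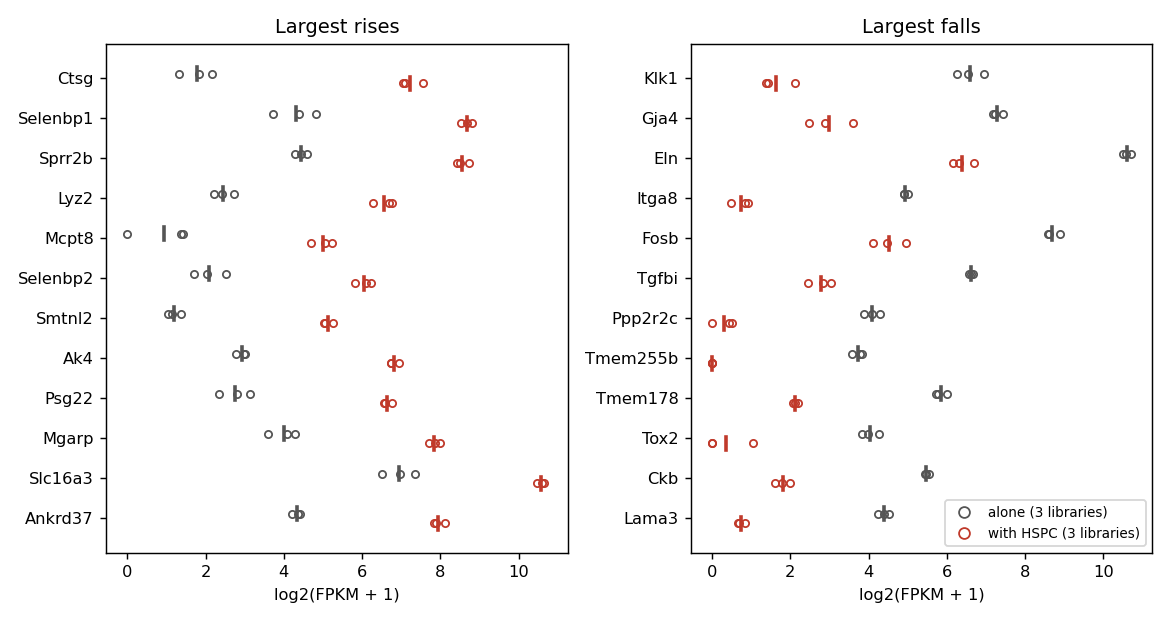
Level of the 12 largest rises and 12 largest falls in each library, as log2(FPKM + 1), among genes with a mean of at least 1 FPKM alone. Circles are libraries, bars are group means, grey is endothelium alone and red is endothelium with HSPC, and the naming rule took only genes in which the 3 circles of one group lie above the 3 of the other.

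The 12 largest falls by the same rule held arterial, matrix and immediate-early genes. Klk1, the tissue kallikrein that releases kinins, was at 123, 93.01 and 75.7 FPKM alone and 3.36, 1.70 and 1.59 FPKM with HSPC, although reads can be shared within the kallikrein family. Gja4, a connexin of arterial gap junctions, was at 172, 143 and 149 FPKM alone and 11.2, 4.61 and 6.35 FPKM with HSPC, a difference of -4.29 ± 0.21 (SE; limma BH-adjusted p = 3.21e-08). Eln, which encodes elastin of the arterial wall, was at 1523, 1686 and 1463 FPKM alone and 103, 70.4 and 78.1 FPKM with HSPC, a difference of -4.22 ± 0.21 (SE; limma BH-adjusted p = 3.24e-08). The highest library with HSPC was therefore far under the lowest library alone for all 3. Tgfbi, an extracellular protein gene that TGF-beta raises, was at 94.1, 101 and 96.6 FPKM alone and 7.21, 6.08 and 4.49 FPKM with HSPC, a difference of -3.85 ± 0.12. Itga8, an integrin chain, was at 28.9, 31.2 and 28.9 FPKM alone and 0.880, 0.790 and 0.390 FPKM with HSPC, and Lama3, a laminin chain, at 20.2, 21.9 and 17.96 FPKM alone and 0.790, 0.580 and 0.620 FPKM with HSPC. Ckb, the creatine kinase of brain, was at 43.3, 45.5 and 42.2 FPKM alone and 3.01, 2.06 and 2.48 FPKM with HSPC. Tmem255b was listed at 0 in all 3 libraries with HSPC, from 12.7, 13.3 and 11.01 FPKM alone. The others of the 12 were Fosb, described below, Ppp2r2c, Tmem178 and Tox2, whose mean levels alone of 16.2, 56.7 and 15.4 FPKM fell to 0.257, 3.37 and 0.353 FPKM.

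Most arterial genes were lower with HSPC. Of 22 arterial members, 14 were lower, 9 of them at least 2-fold, 4 were higher and 4 were not called, with a median difference of -0.85. In the fit of all 24 libraries 5 were lower and 0 higher. Gja5, the other arterial connexin of the list, was at 312, 276 and 282 FPKM alone and 82.9, 50.6 and 57.7 FPKM with HSPC. Jag1, a Notch ligand, was at 180.3, 181 and 172 FPKM alone and 47.2, 43.6 and 45.6 FPKM with HSPC. Bmx, a kinase of large arteries, was at 64.5, 52.7 and 58.4 FPKM alone and 13.3, 8.17 and 9.76 FPKM with HSPC. The 2 groups did not overlap in these 3 genes, nor did they, in this direction, in 25.8% of all tested genes, and their differences were -2.20 ± 0.14, -1.94 ± 0.04 and -2.40 ± 0.14 (SE), with limma BH-adjusted p = 2.20e-07, 7.54e-11 and 9.51e-08. The guidance gene Sema3g fell by 1.84 and Efnb2 (ephrin-B2) by 0.84. Nrp1, a co-receptor of VEGF and semaphorins, fell by 0.79, and the chemokine receptor gene Cxcr4 fell by 1.02. Mgp, an inhibitor of calcification that stroma also makes, was at 15.9, 13.6 and 2.33 FPKM alone and 0, 0 and 0 FPKM with HSPC, so its level alone was mostly that of libraries 1 and 2, which also held Col1a1. Dll4, the main arterial Notch ligand, was at 93.3, 87.4 and 90.3 FPKM alone and 86.8, 84.2 and 80.5 FPKM with HSPC and was not called. Gja5, Sema3g, Efnb2 and Cxcr4 were not called with all 24 libraries in the fit.

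The Notch pathway did not move one way. Of 7 Notch targets tested, 1 was higher, 2 were lower and 4 were not called. Hey1, a transcriptional repressor that Notch raises, was at 21.2, 17.97 and 21.6 FPKM alone and 51.6, 47.7 and 45.9 FPKM with HSPC. Its relative Hey2 was at 26.8, 21.99 and 24.5 FPKM alone and 6.21, 6.42 and 5.73 FPKM with HSPC. The 2 genes thus changed in opposite directions, by 1.22 ± 0.10 and -1.83 ± 0.34 (SE; limma BH-adjusted p = 1.40e-06 and 9.18e-04), and neither was called with all 24 libraries in the fit. Hey2 was not called with a pseudocount of 0.1 either. The targets Hes1 and Nrarp differed by 0.16 and 0.09 and were not called. The receptor gene Notch1 was at 246 ± 9.46 FPKM alone and 250.3 ± 10.4 FPKM with HSPC (mean ± SD, n = 3) and was not called. GTGGGAA, the letters Rbpj binds, was held on either strand by 3 of 6 Notch target promoters (50%) and by 1 of 17 arterial promoters (5.9%), against 6.4% of all promoters.

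Venous and sinusoidal genes were mostly higher. Of 12 tested, 9 rose and 2 fell (median 0.73), but with all 24 libraries in the fit 1 was higher. Stab1, a scavenger receptor of sinusoids, was at 365, 308 and 367 FPKM alone and 822, 788 and 795 FPKM with HSPC. Flt4, the VEGF-C receptor of sinusoids and lymphatics, was at 90.2, 87.99 and 89.7 FPKM alone and 192, 202 and 196 FPKM with HSPC. Nr2f2, the transcription factor of venous identity, was at 226, 207 and 209.8 FPKM alone and 398, 403 and 402 FPKM with HSPC. Each of these lay above the libraries alone in all 3 libraries with HSPC, by 1.21, 1.13 and 0.90 on the log2 scale. Selp (P-selectin), which catches leukocytes, was at 1.09, 1.01 and 1.42 FPKM alone and 9.72, 12.8 and 8.99 FPKM with HSPC, and platelets are known to carry it too. Lyve1, a hyaluronan receptor, rose by 0.53. Stab1, Flt4, Nr2f2, Selp and Lyve1 were not called with all 24 libraries in the fit. Fcgr2b was listed at 0 in the libraries alone and was at 3.49, 5.93 and 3.10 FPKM with HSPC, and macrophages and other blood cells express it as well.

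Genes of general endothelial identity moved both ways. Of 26, 7 were higher, 2 of them at least 2-fold, 8 were lower, 3 of them at least 2-fold, and 11 were not called, with a median of -0.04. The 15 called of 26 stand beside 48.6% of all tested genes. The fit of all 24 libraries called 2 higher and 1 lower. Pecam1, an adhesion protein of endothelial junctions, was at 4249, 3922 and 4183 FPKM alone and 6532, 6568 and 6373 FPKM with HSPC, a difference of 0.66 ± 0.13. Flt1, a VEGF receptor that captures ligand, was at 125, 118 and 124 FPKM alone and 328, 331 and 292 FPKM with HSPC. Vwf, the clotting factor carrier stored in endothelium, was at 207, 229 and 211 FPKM alone and 60.8, 47.4 and 45.3 FPKM with HSPC, a difference of -2.06 ± 0.15 (SE; limma BH-adjusted p = 4.98e-07). Pecam1 and Flt1 were thus higher and Vwf lower without overlap. In bulk libraries fewer cells of a type and less RNA per cell cannot be told apart, and this touches every value here.

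Growth factor genes of endothelium moved both ways. Of 19 VEGF, angiopoietin and apelin genes tested, 7 rose and 7 fell (median 0.00), beside 28.3% and 20.3% of all tested genes, and with all 24 libraries in the fit 2 rose and 2 fell. Beside Vegfa and Flt1, Nrp2 rose by 0.76. Kdr, the main signalling VEGF receptor, was at 1284, 1299 and 1211 FPKM alone and 711, 678 and 705 FPKM with HSPC. The peptide gene Apln was at 722, 831 and 867 FPKM alone and 429.5, 449.6 and 428 FPKM with HSPC, and its receptor gene Aplnr fell by 1.12. Spry4, a feedback inhibitor of receptor signalling, was at 7.89, 8.02 and 7 FPKM alone and 1.90, 1.68 and 2.16 FPKM with HSPC, a difference of -1.57 ± 0.16 (SE; limma BH-adjusted p = 8.36e-06). The ligand Vegfa and the receptor Kdr thus changed in opposite directions without overlap between groups. Nrp2, Kdr, Apln and Aplnr were not called with all 24 libraries in the fit, and Kdr was not called with a pseudocount of 0.1.

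Akt1, the gene in the titles, was at 1094, 1091 and 1128 FPKM alone and 1866, 1809.5 and 1765 FPKM with HSPC, a difference of 0.71 ± 0.05 (SE; limma BH-adjusted p = 2.07e-07). All 3 libraries with HSPC were above all 3 alone. In stroma its difference was -0.36, and the endothelial change was larger than the stromal one by 1.08 ± 0.06 (SE; limma BH-adjusted p = 1.86e-07), beside 57% of all tested genes called for that difference. Of 21 Akt, FoxO and mTOR genes, 8 rose and 5 fell (median 0.06), beside 28.3% and 20.3% of all tested genes. With all 24 libraries in the fit 4 rose and 2 fell. Ccng2, a cyclin that FoxO factors raise, was at 72.7, 62.5 and 68 FPKM alone and 244, 251 and 229.9 FPKM with HSPC, and Trib3, a pseudokinase that can bind Akt, was at 7.18, 6.79 and 6.12 FPKM alone and 25.2, 23.7 and 22.8 FPKM with HSPC. Both were above the libraries alone without overlap, by 1.82 and 1.69. Sesn3, a FoxO target of the sestrin family, rose by 1.16. Foxo1 itself was at 109.5, 116 and 112 FPKM alone and 61.3, 56.95 and 56.5 FPKM with HSPC, a fall of 0.94. Pik3ip1, the 1 member of the list that fell at least 2-fold, was at 24.8, 24.3 and 25.4 FPKM alone. With HSPC it was at 11.5, 12.3 and 11.5 FPKM, a difference of -1.02. Txnip, an inhibitor of glucose uptake, fell by 0.58, a call lost with all 24 libraries in the fit.

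Immediate-early genes, which serum and stress induce within minutes, were mostly lower. Of 22, 12 were lower, 9 of them at least 2-fold, 3 were higher and 7 were not called, with a median of -0.60. In the fit of all 24 libraries 11 were lower and 2 higher. Fos, a subunit of the transcription factor AP-1, was at 1009.7, 1152 and 1060.1 FPKM alone and 136, 94.3 and 144 FPKM with HSPC. Fosb, another AP-1 subunit, was at 392, 473 and 383 FPKM alone and 21.4, 16.4 and 29.8 FPKM with HSPC. Egr1, a zinc finger factor, was at 818, 904 and 846 FPKM alone and 307, 256 and 346 FPKM with HSPC. The differences were -3.12 ± 0.13, -4.18 ± 0.18 and -1.51 ± 0.10 (SE), with limma BH-adjusted p = 8.51e-09, 7.96e-09 and 2.87e-07, and in none did the groups overlap. The receptor gene Nr4a1 fell by 1.96, Egr3 by 2.00, and Zfp36, whose product destabilizes cytokine mRNA, by 1.98. Other members did not follow. Fosl2, also of AP-1, was at 168, 187 and 188 FPKM alone and 578, 587 and 554 FPKM with HSPC, and Ier3 was at 187, 204 and 197 FPKM alone and 715, 596 and 588 FPKM with HSPC, both higher in every library with HSPC, though Ier3 was not called with all 24 libraries. Junb, Klf2 and Klf4 differed by -0.08, -0.06 and -0.02 and were not called. In stroma 17 of the 22 members rose and 3 fell (median 2.04), beside 25.6% higher and 35.4% lower of all tested genes there. The change differed between the cell types for all 22, beside 57% of all tested genes. TGANTCA, the AP-1 letters, was held on either strand by 0 of 17 promoters of these genes, against 7.9% of all promoters.

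Sterol synthesis rose. Of 21 members tested, 20 were higher, 4 of them at least 2-fold, and 1 was lower, with a median of 0.66. Their summed level went from 4517 to 4942 FPKM alone to 7473 to 7800 FPKM with HSPC. Fdft1, which makes squalene, was at 144, 152 and 158 FPKM alone and 345, 352 and 345 FPKM with HSPC. Mvd, an enzyme of the mevalonate pathway, was at 64.3, 78.3 and 73.5 FPKM alone and 154, 158 and 155 FPKM with HSPC. Sqle, which oxidizes squalene, was at 432, 450.4 and 453 FPKM alone and 836, 878 and 828 FPKM with HSPC. The groups did not overlap in any of these, and the differences were 1.20 ± 0.07, 1.11 ± 0.07 and 0.93 ± 0.11 (SE), with limma BH-adjusted p = 1.56e-07, 2.30e-07 and 4.65e-05. Hsd17b7 and Nsdhl, enzymes of the later steps, rose by 1.07 and 1.05. Srebf2, the transcription factor of the pathway, rose by 0.39. The exception was Dhcr7, the enzyme of the last step to cholesterol, which was at 111, 133 and 120.4 FPKM alone and 96.6, 97.1 and 95.98 FPKM with HSPC. The fit of all 24 libraries called 6 members, and Srebf2 and Dhcr7 were not among them. In stroma 0 members rose and 15 fell (median -0.37), beside 25.6% higher and 35.4% lower of all tested genes there. The change differed between the cell types for all 21, beside 57% of all tested genes. CCAAT was held on either strand by 12 of 13 sterol gene promoters (92.3%), against 37.9% of all promoters.

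Among 13 fatty acid and lipase genes tested, 8 rose and 4 fell (median 0.44), and none was called with all 24 libraries in the fit. Gpihbp1, which holds lipoprotein lipase on capillary endothelium, was at 261, 198 and 239 FPKM alone and 533, 484 and 488 FPKM with HSPC. Fabp4 and Fabp5, carriers of fatty acids, were at 106, 86.7 and 98.6 FPKM alone and 45.6, 42.2 and 45.1 FPKM with HSPC and at 123, 127 and 118 FPKM alone and 39.6, 44.1 and 37.6 FPKM with HSPC. The lipase partner was thus higher, by 1.11, and both carriers lower, without overlap. Cpt1a, the gate of mitochondrial fatty acid burning, fell by 0.73.

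Of 29 niche ligands tested, 8 rose and 10 fell (median -0.08), beside 28.3% and 20.3% of all tested genes, and with all 24 libraries in the fit 2 rose and 2 fell. Cxcl12, the chemokine that retains stem cells, was at 558, 658 and 640.2 FPKM alone and 255, 268 and 268 FPKM with HSPC, a difference of -1.22 ± 0.24 (SE; limma BH-adjusted p = 0.00129). Kitl, the ligand of the Kit receptor, was at 555, 511 and 535 FPKM alone and 380.0, 374 and 388 FPKM with HSPC, a difference of -0.49 ± 0.08 (SE; limma BH-adjusted p = 3.40e-04). Pdgfb, which draws pericytes to vessels, was at 86.1, 83.4 and 83.2 FPKM alone and 14.8, 12.4 and 12.7 FPKM with HSPC, a difference of -2.58 ± 0.20 (SE; limma BH-adjusted p = 1.00e-06). All 3 were lower in every library with HSPC than in every library alone. The cytokine gene Il6 went the other way, at 4.12, 4.34 and 3.54 FPKM alone and 14.2, 15.02 and 13.9 FPKM with HSPC. Igfbp3, a binding protein of insulin-like growth factors, rose by 0.83, and Tgfb1 by 0.51. Bmp4 fell by 0.73, while Vcam1, an adhesion ligand, was at 51.3, 56.9 and 60.9 FPKM alone and 51.6, 52.9 and 49.7 FPKM with HSPC and was not called. Cxcl12, Kitl, Igfbp3, Tgfb1 and Bmp4 were not called with all 24 libraries in the fit.

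Among chemokines, Ccl7 and Ccl2, which attract monocytes, were higher, and Cx3cl1 was lower. Ccl7 was at 40.5, 36.7 and 50 FPKM alone and 381, 394 and 409 FPKM with HSPC, and Ccl2 was at 1722, 2049 and 2181 FPKM alone and 4580.1, 4732 and 4679.9 FPKM with HSPC. The differences of 3.20 ± 0.41 and 1.24 ± 0.29 (SE; limma BH-adjusted p = 6.01e-05 and 0.00400) came with no overlap between groups, although Ccl2 was not called with all 24 libraries in the fit. Cx3cl1, a membrane-bound chemokine, was at 34.7, 30.9 and 32.03 FPKM alone and 8.07, 6.72 and 6.48 FPKM with HSPC. The neutrophil chemokine gene Cxcl1 was at 146, 154 and 169 FPKM alone and 171, 186 and 179 FPKM with HSPC and was not called. In all, 5 of 14 tested chemokines and cytokines were higher and 1 was lower (2 and 1 with all 24 libraries), with a median of 0.43, and Il1b, Csf2, Ccl3 and Ccl4 were listed at 0 in all 6 libraries. Of 13 leukocyte adhesion genes, 4 were higher and 4 lower (1 and 0 with all 24 libraries), beside 28.3% and 20.3% of all tested genes. The median of these 13, 0.13, turned to -0.03 after quantile normalization. Jam2, a junctional adhesion molecule of venous endothelium, was at 457, 199 and 385 FPKM alone and 2221, 2164 and 2114 FPKM with HSPC, a difference of 2.72 ± 0.23 (SE; limma BH-adjusted p = 1.96e-06). Icam1, a ligand of leukocyte integrins, was at 11.6, 14.4 and 12.2 FPKM alone and 12.7, 9.31 and 9.05 FPKM with HSPC and was not called.

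Of 26 interferon-stimulated genes, 8 were higher, 2 were lower and 16 were not called (median 0.32), beside 28.3% higher and 20.3% lower of all tested genes. With all 24 libraries in the fit 2 rose and 1 fell. With only the 6 endothelial libraries in the fit, 16 were higher and 4 lower. Rsad2, an antiviral enzyme gene, was at 46.5, 39.3 and 44.4 FPKM alone and 82.8, 101 and 97.2 FPKM with HSPC, and Ifit2 was at 22.2, 16.4 and 17.9 FPKM alone and 6.82, 8.61 and 8.93 FPKM with HSPC. These changed in opposite directions, by 1.09 ± 0.29 and -1.12 ± 0.13 (SE; limma BH-adjusted p = 0.00962 and 2.43e-05). Rsad2 was not called with all 24 libraries or with a pseudocount of 0.1. Isg15, Ifit1 and Bst2 differed by 0.19, -0.04 and -0.13 and were not called. In stroma 23 of the 26 were lower and 1 higher, with a median of -1.07, beside 35.4% lower and 25.6% higher of all tested genes there. GAAANNGAA, the core of the interferon response element, was held on either strand by 13 of 21 of these promoters (61.9%), against 8.6% of all promoters.

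Of 15 genes of MHC class I presentation, 5 were higher and 1 lower, beside 28.3% and 20.3% of all tested genes. With all 24 libraries 2 were higher and 0 lower. The median of these 15, 0.08, turned to -0.01 after quantile normalization. H2-K1, a classical class I chain, was at 401, 375 and 339.6 FPKM alone and 959, 1018 and 1004 FPKM with HSPC, a difference of 1.42 ± 0.08 (SE; limma BH-adjusted p = 8.79e-08), and H2-T23 rose by 0.91. These chains are close copies of each other, so the share of each is uncertain. B2m, the shared light chain, was at 5277, 4908 and 4800.2 FPKM alone and 5278, 5046 and 5480.3 FPKM with HSPC and was not called. Among 15 NF-kB subunits and feedback genes 9 rose and 0 fell (median 0.27), but 2 were lower after quantile normalization (7 higher) and after trimmed-mean scaling (6 higher), and with all 24 libraries 2 were higher. Bcl3, an atypical inhibitor that works in the nucleus, was at 11.8, 12.8 and 13.99 FPKM alone and 42.6, 41.7 and 42.5 FPKM with HSPC, a difference of 1.65 ± 0.16 (SE; limma BH-adjusted p = 6.06e-06). Birc3, an inhibitor of apoptosis, rose by 0.68. GGGANTTTC, the NF-kB letters, was held on either strand by 1 of 12 of these promoters (8.3%), against 1.1% of all promoters.

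Proliferation genes were lower by small amounts. Of 28 cell cycle genes, 17 were lower, none of them 2-fold, 2 were higher and 9 were not called, with a median of -0.36. The fit of all 24 libraries called 0 lower and 2 higher. Mcm5, of the replicative helicase, was at 91.05, 114 and 114 FPKM alone and 70.2, 77.7 and 70.2 FPKM with HSPC, and Cdc20, of the anaphase complex, was at 72.96, 80.6 and 82.3 FPKM alone and 47.99, 52.2 and 49.7 FPKM with HSPC. Ccnd1, the cyclin of early G1, fell by 0.55. Mki67, the proliferation marker, was at 61.04, 67.8 and 72.3 FPKM alone and 45.9, 53.8 and 51.1 FPKM with HSPC and was not called. The 2 that rose are inhibitors of cyclin-dependent kinases. Cdkn1a was at 769.9, 849.5 and 822 FPKM alone and 1566, 1618 and 1493 FPKM with HSPC, and Cdkn1b was at 90.5, 87.5 and 85.2 FPKM alone and 169, 175 and 169.6 FPKM with HSPC. Neither gene overlapped between groups, and the differences were 0.94 ± 0.09 and 0.96 ± 0.08 (SE; limma BH-adjusted p = 9.18e-06 and 1.73e-06). In stroma 24 of the 28 were lower, with a median of -1.09, beside 35.4% of all tested genes lower there. CCAAT was held on either strand by 18 of 23 of these promoters (78.3%, against 37.9% of all), TTTGAA by 9 (39.1%, against 18.1%) and TTTCGAA by 2 (8.7%, against 0.7%).

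TGF-beta and BMP targets moved both ways. Of 15 tested, 3 rose and 7 fell (median -0.20), and with all 24 libraries in the fit 2 rose and 5 fell. Ctgf and Cyr61, matrix-linked signals that the YAP factors also raise, were at 294, 312 and 336 FPKM alone and 83.9, 82.7 and 79.1 FPKM with HSPC and at 1346, 1566 and 1603 FPKM alone and 549.6, 524 and 539.7 FPKM with HSPC. Both were lower without overlap, with differences of -1.92 ± 0.17 and -1.48 ± 0.09 (SE; limma BH-adjusted p = 2.86e-06 and 1.27e-07). Smad7, the inhibitor that these signals induce, was at 6.37, 7.44 and 5.34 FPKM alone and 29.4, 23.5 and 25.4 FPKM with HSPC, a difference of 1.88 ± 0.14 (SE; limma BH-adjusted p = 1.04e-06). Id1 rose by 0.90 and Id2 fell by 1.09, although both are inhibitors of the same class of transcription factors, and Id1 was not called with all 24 libraries.

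Matrix genes of vessels were lower in part. Of 15 basement membrane genes 4 rose and 6 fell (median -0.01), beside 28.3% and 20.3% of all tested genes. With all 24 libraries in the fit 0 rose and 1 fell. Col8a1, a short-chain collagen of vessel walls, was at 45.8, 49.8 and 48.7 FPKM alone and 9.85, 10.8 and 11.8 FPKM with HSPC, a difference of -2.06 ± 0.18 (SE; limma BH-adjusted p = 2.39e-06). Col4a1, the main collagen of the basement membrane, was at 1136, 1203 and 1216 FPKM alone and 1249.7, 1190.3 and 1169 FPKM with HSPC and was not called. Fbn1, the fibrillin of elastic fibres, was at 71.5, 76.5 and 63.96 FPKM alone and 9.40, 8.25 and 8.16 FPKM with HSPC, a difference of -2.90 ± 0.12 (SE; limma BH-adjusted p = 6.41e-09). It is 1 of 22 mesenchymal matrix genes tested, of which 11 were lower and 2 higher, with a median of -0.38. All 24 libraries in the fit left 3 lower and 0 higher. Several members that fell were low and stood mainly in libraries 1 and 2 alone, like Col1a1 above. What the traces of stromal genes in the libraries alone add to this count was not tested. Col1a1, at -1.61 on the log2 scale, was not called without library 1 or 2 alone, nor without library 2 or 3 with HSPC (-1.55 to -1.17 over these fits). Timp3, an inhibitor of matrix proteases, was at 1051, 1032 and 1048 FPKM alone and 304, 304 and 326 FPKM with HSPC, and Adamts1, a protease of proteoglycans, was at 468, 482 and 479 FPKM alone and 1128, 1145 and 1119 FPKM with HSPC. The inhibitor was lower and the protease higher, with differences of -1.74 ± 0.14 and 1.24 ± 0.07 (SE; limma BH-adjusted p = 1.32e-06 and 4.95e-08), and Adamts1 was not called with all 24 libraries. Of 14 matrix protease genes 6 rose and 3 fell (median 0.09), beside the same 28.3% and 20.3%. With all 24 libraries in the fit 1 rose and 1 fell.

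Of 18 coagulation and vasoactive genes 3 rose and 7 fell (median -0.09), beside 28.3% and 20.3% of all tested genes. With all 24 libraries in the fit 1 rose and 2 fell. Tfpi, an inhibitor of tissue factor, was at 207, 203 and 224 FPKM alone and 461, 506 and 449 FPKM with HSPC, a rise of 1.15. Ace, the angiotensin-converting enzyme, was at 20.1, 20.3 and 18.5 FPKM alone and 3.59, 3.15 and 2.83 FPKM with HSPC, a fall of 2.30. Nos3, the endothelial nitric oxide synthase, was at 1435, 1499 and 1442 FPKM alone and 1598, 1505 and 1547 FPKM with HSPC and was not called. Stress genes were higher in 13 of 24 cases and lower in 6 (median 0.18), and with all 24 libraries in the fit 5 rose and 1 fell. Mt2, a metallothionein, was at 3.30, 0 and 0 FPKM alone and 6.82, 6.61 and 7.44 FPKM with HSPC, and its close copy Mt1 stands among the genes set apart. The chaperone gene Hsp90b1 of the endoplasmic reticulum rose by 0.77, and Nqo1, a detoxifying enzyme, fell by 0.66, a call lost with all 24 libraries. Ddit3 and Atf4, factors of the integrated stress response, differed by 0.08 and -0.01 and were not called.

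**Figure D3:**
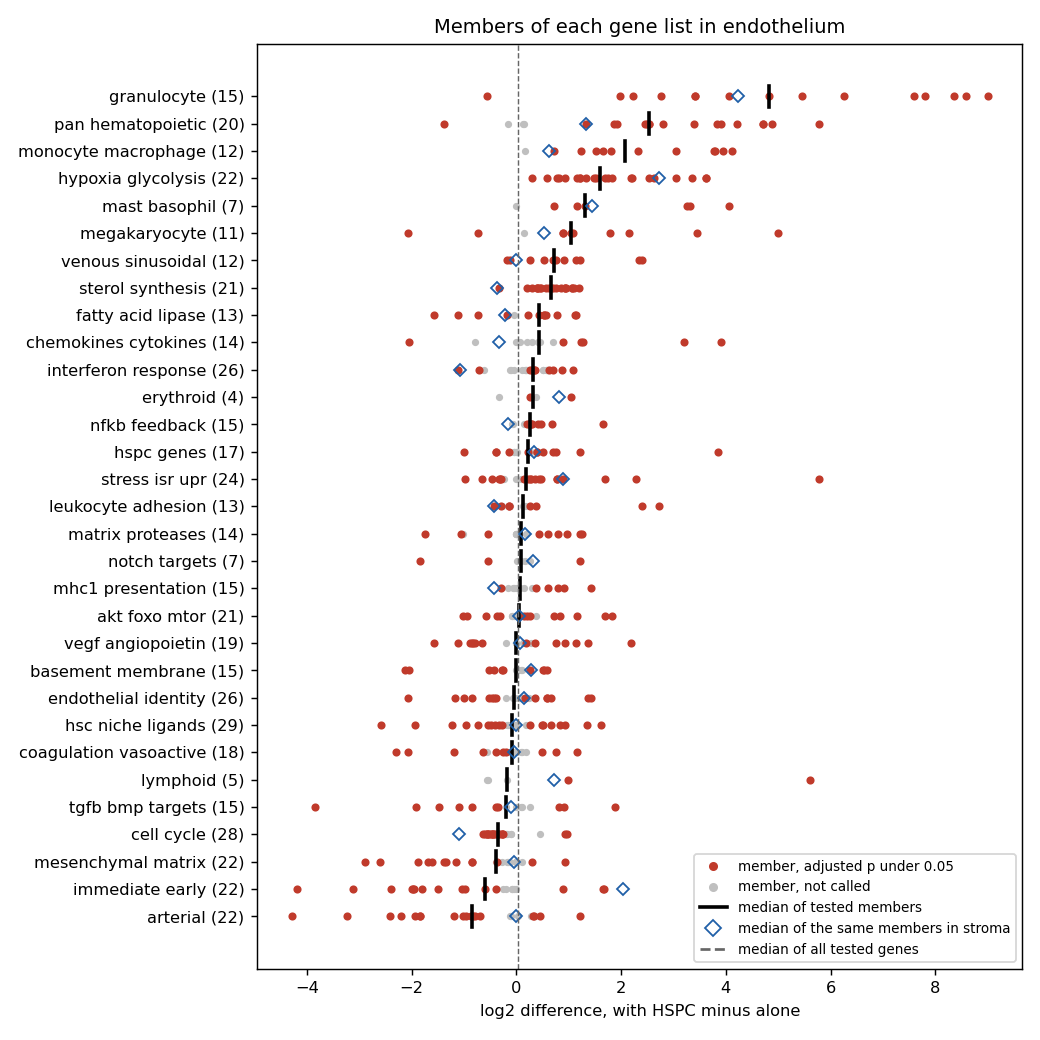
Log2 difference (endothelium with HSPC minus alone) of each tested member of the 31 gene lists, with the number of tested members in brackets. Red points are called members, black bars list medians and blue diamonds the medians of the same members in stroma. The dashed line is the median of all tested genes (0.02). Granulocyte, pan-hematopoietic, monocyte and macrophage, and hypoxia and glycolysis genes lie at the top and arterial genes at the bottom. Of the other blood lists, mast cell and basophil genes and megakaryocyte genes have medians of 1.31 and 1.04. Erythroid, stem and progenitor cell, and lymphoid genes have medians of 0.32, 0.22 and -0.19.

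Several of the largest rises among the genes set apart were of genes known from blood cells. Of 1579 tested genes with a mean under 1 FPKM alone, 393 were higher with HSPC (24.9%), 273 of them at least 2-fold (17.3%), and 46 were lower (2.91%). Sox9, with a mean of 0.847 FPKM alone, lay just inside the limit of 1 FPKM and Mcpt8, with 1.10 FPKM, just outside. A gene of this class passed the filter mainly where another group was high, so these shares describe the class and test nothing. Of the 393, 226 were listed at 0 in all 3 libraries alone, and their median level with HSPC was 2.19 FPKM. S100a8 and S100a9, calcium-binding proteins of neutrophils, were at 587, 464 and 488 FPKM and at 399, 283 and 310.2 FPKM with HSPC. Elane, the neutrophil elastase, was at 342, 444 and 364 FPKM, Prtn3, a related granule protease, at 193, 289.7 and 199.7 FPKM, and Mpo, the granule peroxidase, at 169.7, 236 and 178 FPKM. All 5 were listed at 0 in every library alone, and in every library of the first culture of endothelium as well. Library 2 with HSPC held the highest values of Elane, Prtn3 and Mpo, made early in granulocyte maturation, and library 1 those of S100a8, S100a9 and Ngp, made later. Ngp was at 46.9, 18.5 and 22.9 FPKM.

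The other large rises of the class were of mixed kinds. Tyrobp, an adaptor of myeloid receptors, was at 49.9, 64.5 and 48.1 FPKM with HSPC, and Nkg7, of cytotoxic granules, at 39.3, 58.4 and 47.96 FPKM. Ms4a3, a marker of granulocyte and monocyte progenitors, was at 66.7, 96.6 and 66.8 FPKM and Cst7, a cystatin of blood cells, at 30.6, 35.4 and 32.7 FPKM. Ppbp, a chemokine of platelets, was at 15.2, 73.5 and 25.96 FPKM, where library 2 stood apart. These 5 genes were listed at 0 in all libraries of endothelium alone. Plac8, a gene of myeloid and other cells, was listed at 0 alone and at 279.7, 358 and 251 FPKM with HSPC, but it was at 152, 152 and 549 FPKM in the first culture of endothelium. Mt1, a metallothionein that binds zinc, was listed at 0 alone and at 49.5, 61.04 and 52.3 FPKM with HSPC. In stroma Mt1 rose from 916 FPKM alone to 3421 FPKM with HSPC (means, n = 3). Sox9, a transcription factor that is no marker on the blood lists, was at 1.01, 0.670 and 0.860 FPKM alone and 34.1, 34.4 and 31.6 FPKM with HSPC; it was chosen after its values were seen.

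**Figure D4:**
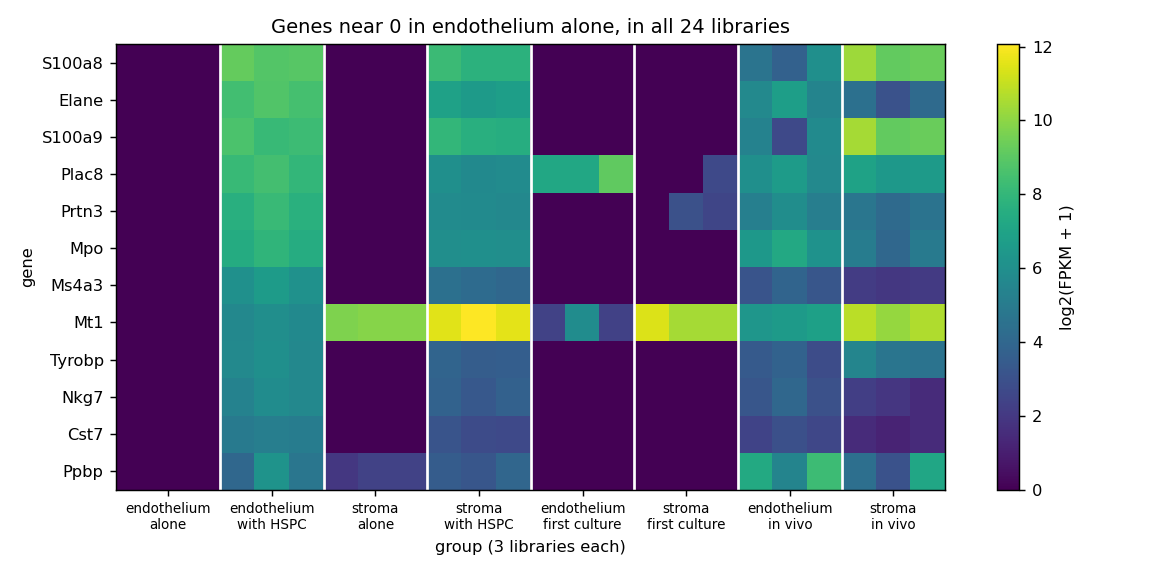
Level, as log2(FPKM + 1), of the 12 largest rises among the genes set apart, in all 24 libraries in 8 groups of 3. All 12 are at 0 in endothelium alone, 10 of them are also at 0 in the first culture of endothelium, and in vivo libraries of both cell types hold all 12.

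Of the 83 set-apart genes that rose and reached a mean of 5 FPKM with HSPC, 29 were on the blood cell lists and 70 were also higher with HSPC in stroma. Of the 83, 65 were under 1 FPKM in the first culture of endothelium, and 69 were at 1 FPKM or more in endothelium in vivo. Of all 393 that rose, 42 were on the blood cell lists, 249 were under 1 FPKM in that first culture and 258 reached 1 FPKM in vivo. In stroma 183 of the 393 were higher, 37 were lower and 173 were not called, where 25.6% of all tested genes were higher. These counts describe the class and test nothing. The 393 genes held 0.00499% to 0.00617% of a library's total FPKM alone and 0.205% to 0.254% with HSPC. Whether these transcripts came from blood cells left in the culture or from endothelium cannot be told apart in these libraries.

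The lists of blood cell markers were also read by lineage. Granulocyte genes summed to 49.6 to 57.4 FPKM alone, with 16 of 18 members at 0, and to 1839 to 2092 FPKM with HSPC. Nearly all of the level alone was Ltf (lactoferrin), at 54.8, 48.1 and 52.3 FPKM alone and 41.1, 30.3 and 32.98 FPKM with HSPC. It was lower with HSPC, a call lost with all 24 libraries in the fit. Monocyte and macrophage genes summed to 464 to 483 FPKM alone, with 13 of 20 at 0, and to 1185 to 1316 FPKM with HSPC. Pan-hematopoietic genes summed to 418 to 452 FPKM alone, with 12 of 20 at 0, and to 696 to 795 FPKM with HSPC, with none at 0. Ptprc, the defining surface phosphatase of leukocytes, was listed at 0 alone and was at 2.06, 1.39 and 1.17 FPKM with HSPC. The counts of tested members that were higher were 14 of 15 granulocyte genes, 16 of 20 pan-hematopoietic genes, 11 of 12 monocyte and macrophage genes and 6 of 7 mast cell and basophil genes. Most of these members had passed the filter only through the groups with HSPC. Of lymphoid genes 2 of 5 were higher, and Cd3e and Pax5 were listed at 0 in all 6 libraries. Of erythroid genes 2 of 4 were higher, and Hbb-b1 was listed at 0 in all 6 libraries.

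Some blood genes were already detected alone. Ctsg, a granule protease, was at 2.58, 1.49 and 3.45 FPKM alone and 135, 187 and 131 FPKM with HSPC. Lyz2, the lysozyme of macrophages and granulocytes, was at 3.66, 5.62 and 4.35 FPKM alone and 101, 107 and 76.1 FPKM with HSPC, with a close copy in Lyz1 that leaves the share of each uncertain. Mcpt8, a protease of basophils, was at 0, 1.70 and 1.60 FPKM alone and 24.9, 31.98 and 36.6 FPKM with HSPC. The rises of Ctsg and Lyz2 were 5.46 ± 0.19 and 4.11 ± 0.17 (SE; limma BH-adjusted p = 1.72e-09 and 6.31e-09). The stem and progenitor cell genes summed to 11660 to 12579 FPKM alone, with 5 of 20 at 0, and to 16531 to 16928 FPKM with HSPC. This list also summed to 7685 to 27458 FPKM in the first culture of endothelium, against 529 to 614 FPKM in stroma alone. Of 17 tested, 8 rose and 4 fell (median 0.22). Only Myb was higher with all 24 libraries in the fit. Kit, the receptor of stem cells, was at 11.9, 5.29 and 8.73 FPKM alone and 23.8, 19.4 and 18.9 FPKM with HSPC, and its call was lost with all 24 libraries and with a pseudocount of 0.1. Cd34, a sialomucin of stem cells and endothelium, was at 2118, 2112 and 2291 FPKM alone and 3136, 3021 and 3132 FPKM with HSPC. Myb, a transcription factor of blood progenitors, was listed at 0 alone and at 12.3, 16.8 and 11.5 FPKM with HSPC. Pf4, a platelet chemokine, was at 6.36, 6.47 and 7.63 FPKM alone and 28.5, 42.1 and 31.6 FPKM with HSPC, among 11 megakaryocyte genes of which 8 were higher and 2 lower (4 and 1 with all 24 libraries). The part of these blood cell markers in the other changes was not tested.

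Beside stroma, which was grown with HSPC in the same series, the endothelial changes were partly shared. The 2 comparisons have no library in common, but the same fit of 12 libraries gave both. Calls in the 2 cell types therefore share the estimated spread of each gene. Of 394 genes that rose at least 2-fold from a level of 1 FPKM or more in endothelium, 231 (58.6%) were also higher in stroma, 44 were lower and 119 were not called, where 25.6% of all tested genes were higher. Of 351 that fell at least 2-fold, 126 (35.9%) were also lower, 63 were higher and 162 were not called, where 35.4% of all tested genes were lower. The change differed between the cell types for 7996 of 14017 tested genes (57%), and for 2276 with all 24 libraries in the fit. Among the 394 it differed for 291, and among the 351 for 294. These genes were chosen by their endothelial change, which is part of that difference, so the 2 counts test nothing. Some of them, such as Klk1 and Gja4, were listed at 0 in stroma both alone and with HSPC. Hypoxia and glycolysis genes were higher in both, by a median of 1.60 in endothelium and 2.72 in stroma, and the change differed between the cell types for 18 of 22. Fosb and Tgfbi, of the 24 largest rises and falls named, were lower in endothelium and higher in stroma. Fosb differed by -4.18 ± 0.18 in endothelium and 4.60 in stroma, and Tgfbi by -3.85 ± 0.12 and 1.68, on the log2 scale.

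**Figure D5:**
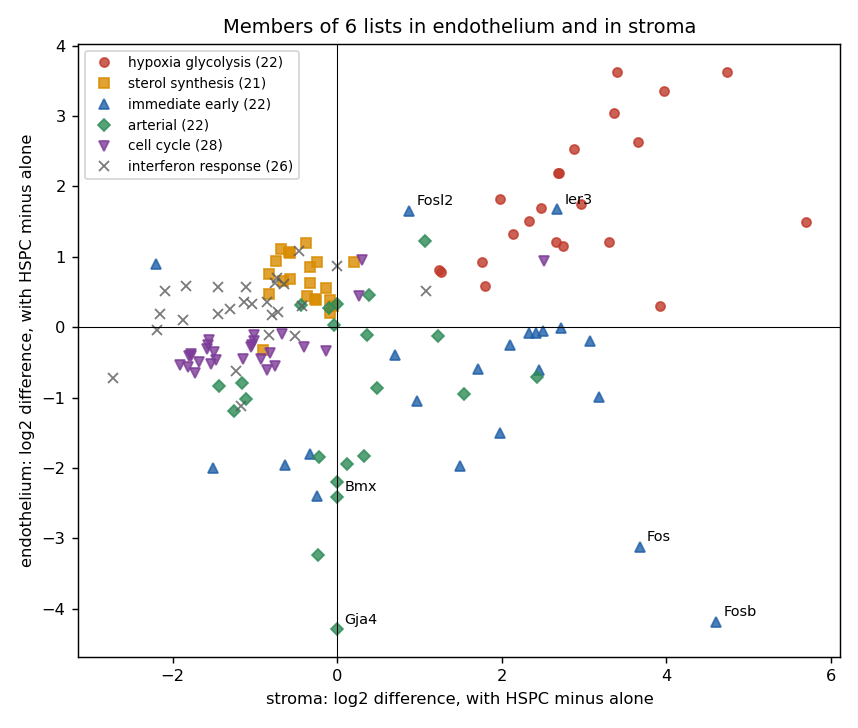
Log2 difference with HSPC minus alone in endothelium (vertical) against stroma (horizontal) for the tested members of 6 gene lists, 1 point per gene. Hypoxia and glycolysis genes lie above 0 on both axes, most sterol genes lie above 0 in endothelium and below 0 in stroma, and Fos and Fosb lie below 0 in endothelium and above 0 in stroma.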

How the data were processed

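The authors deposited FPKM values, 1 per gene symbol and library, made with TopHat and Cufflinks on the mouse build mm9, without versions, per the submitters' processing notes. FPKM summed to more per library than plain FPKM usually does, and no further scaling is stated. Values were used as deposited, with no counts, so depth is unknown. No libraries were identical (0 pairs). After a pseudocount of 1, log2(FPKM + 1) was fitted with limma 3.58.1 in R 4.3.3 (lmFit, eBayes with a trend) over the 12 libraries of 4 groups, endothelium and stroma alone and with HSPC. A gene was tested if 3 of them reached 1 FPKM. It was called at a p under 0.05 after Benjamini-Hochberg adjustment over the genes tested. Differences understate the change of low genes. Summaries and figures used Python 3.11.15, pandas 2.3.3 and matplotlib 3.10.9. The fit was tested on simulated data.

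The members and the 31 gene lists (610 entries, 608 found, Hmgcs1 and Hbb-b2 missing) were chosen with earlier results of these data known. Lists are described by counts and medians, with no set test. The naming rule took Akt1 and 12 genes each from the top of the rises and of the falls. These had to be called, have a mean of at least 1 FPKM alone, show no overlap between groups and reach a mean of 5 FPKM in the higher group. It also took the 12 top rises among genes set apart that reached 5 FPKM with HSPC, and from each list at most 4 called genes, those that changed most. Other list genes serve to describe a list, and clone names, microRNA, small nucleolar and histone genes were left out. The alternatives tried were no filter or one at 5 FPKM, a pseudocount of 0.1, setting apart under 5 FPKM, quantile normalization, trimmed-mean scaling (with trims of 0.3 and 0.05), fits of only the 6 endothelial or of all 24 libraries, group weights, the replicate block, a change of 2-fold, and leaving out each of the 6 libraries in turn. Where a library was left out, the spread was still estimated from all groups of the fit. Promoters came from RefSeq (GRCm38.p6).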

Additional observations from a re-analysis of the deposited data

Results flagged for a closer look

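The change with HSPC differed between endothelium and stroma, with opposite directions, for 2 of the genes named as the largest rises and falls. These genes were chosen by their endothelial change, which is part of that difference, so the p-values below describe them and test nothing. Of all tested genes, 57% were called for that difference. Fosb, an AP-1 subunit gene, differed by -4.18 in endothelium and by 4.60 in stroma on the log2 scale, and the endothelial change minus the stromal change was -8.79 ± 0.25 (SE; limma BH-adjusted p = 1.89e-09). It was lower in 3 of 3 endothelial libraries with HSPC than in every library alone, which the naming rule required. Tgfbi, an extracellular protein gene that TGF-beta raises, differed by -3.85 in endothelium and by 1.68 in stroma, and the endothelial change minus the stromal change was -5.53 ± 0.17 (SE; limma BH-adjusted p = 2.57e-09). It was lower in 3 of 3 endothelial libraries with HSPC too, by the same rule. No group had more than 3 libraries, so single libraries were not tested for standing apart.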

How the results depend on the processing

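Counts moved by more than 1.5 times in these settings. With all 24 libraries in the fit, 1268 genes were higher and 584 lower, 965 and 574 of those with a mean of at least 1 FPKM alone, and 2276 genes differed between the cell types. With a change of at least 2-fold, 667 were higher and 351 lower. The genes set apart that rose were 166 with a filter at 5 FPKM and 793 when genes under 5 FPKM alone were set apart. Other counts over all genes stayed within 1.5 times.

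The replicate numbers did not pair the libraries: same-numbered endothelial libraries deviated from their group means with correlations of 0.1296, -0.0404 and 0.0240. With the replicate block, 3647 genes were higher and 2606 lower, 374 of the genes set apart rose, and 7446 genes differed between the cell types. Leaving out each library in turn gave 3292 to 3597 higher and 2321 to 2628 lower, 3016 to 3222 and 2281 to 2595 with a mean of at least 1 FPKM alone, 276 to 375 set apart, and 7345 to 7501 between the cell types.

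For 362 genes that were named or were called list members, 5374 values were computed. Of these 4939 kept their direction and their call, 435 lost the call and none reversed, and 156 genes kept both throughout. All 24 libraries in the fit took the call from 202 genes, a left-out library from 23 to 33, a pseudocount of 0.1 from 18, quantile normalization from 17, the block from 14, trimmed-mean scaling from 12, no filter from 3, and only the 6 endothelial libraries from 3 of 352 that still had a value. A weight per group took it from 0 of 362, and a filter at 5 FPKM from 0 of 339 that still had a value. The causes were not tested. Depth is unknown, so the precision of low values cannot be stated.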
